A study of Drosophila melanogaster with 36 samples.

Results

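Transcripts of 33 neuronal and synaptic genes were followed through 36 poly(A) RNA libraries of *Drosophila* indirect flight muscle (IFM), the muscle that powers the wings. The genes were taken by symbol from a fixed list, and all 33 were found among the 16727 genes of the count table. The list was chosen with earlier results of these data known, so counts of its members are not independent of those results. The study itself linked genes lowered by time-restricted feeding on a high-fat diet to neuronal signalling. By known role, 15 are presynaptic (*brp*, *Rim*, *unc-13*, *Syt1*, *Syt4*, *Syt7*, *Snap25*, *Syn*, *cpx*, *Rab3*, *comt*, *Frq1*, *VGlut*, *Gad1* and *Nrx-1*), 11 are ion channel genes (*cac*, *para*, *tipE*, *Sh*, *Shal*, *Shaw*, *Shab*, *slo*, *eag*, *sei* and *Rdl*) and 7 are other neuronal genes (*elav*, *fne*, *Rbp9*, *onecut*, *futsch*, *jeb* and *Ank2*). All 33 passed the filter on low counts.

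All libraries came from female flies in a 12 h light and 12 h dark cycle, at 3 weeks of age. WT flies were wild-type Canton-S on a normal diet, HFD flies were the same strain on a high-fat diet with coconut oil, and *Sk2* flies carried a mutation of *Sphingosine kinase 2* and ate the normal diet; the labels name no strain for the *Sk2* flies. Each of the 3 was kept under *ad libitum* feeding (ALF, food at all hours) or time-restricted feeding (TRF, food from ZT0 to ZT12 and agar at night). The 6 groups are named by model and regimen, as in HFD-TRF. ZT0 is lights on, and 1 pool of 10 flies per group was collected every 4 h from ZT3 to ZT23. The 6 libraries of a group therefore stand in for replicates, and differences between pools and between hours both enter their spread.

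As in the study, the ZT11 library of WT-TRF and the ZT23 library of *Sk2*-ALF were left out of the tests. These 2 libraries had the lowest *elav* levels of all, 10.7 and 13.6 CPM (counts scaled to a common library size), against 15.9 to 54.5 CPM in the other 34. Library totals over those 34 ran from 3329519 to 30682673 counts. The 16 flight muscle markers summed to between 32654 and 74632 CPM in the 34, so muscle transcripts were abundant in each of them. Single markers varied more, with the actin gene *Act88F* at 255 to 9192 CPM. In the 2 libraries left out the summed markers were also the lowest, 19068 CPM in WT-TRF at ZT11 and 25891 CPM in *Sk2*-ALF at ZT23. The *Sk2* gene itself was at 1.15 to 5.79 CPM in the *Sk2* libraries and at 4.93 to 15.9 CPM in the others of the 34.

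A chemical synapse releases transmitter when an action potential, carried by voltage-gated sodium channels such as Para, opens the calcium channel Cacophony (*cac*) at the active zone. Bruchpilot (*brp*) and Rim organise that zone, Unc-13 primes vesicles, Synaptotagmin 1 (*Syt1*) senses calcium, and Snap25 and Complexin (*cpx*) act in the fusion machinery. Fly motor neurons that innervate the flight muscle use glutamate, which VGlut loads into vesicles. Potassium channels (*Sh*, *Shal*, *Shaw*, *Shab*, *slo*, *eag*, *sei*) then repolarise the membrane. Several of these channel genes are also active in muscle fibres, whereas *elav*, *brp* and *Syt1* are used as markers of neurons. In RNA from a whole tissue, fewer neuronal processes, less RNA in each of them and less nervous tissue carried over with the muscle cannot be told apart.

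Levels per exon length separated a few members from the rest. Over the 34 libraries *Rbp9*, which encodes an ELAV-family RNA-binding protein, had the highest median, 51.7 CPM per kb of exon. It was followed by the calcium-activated potassium channel gene *slo* at 22.96, *Shaw* at 22.9, the calcium sensor gene *Syt7* at 18.5 and *cpx* at 11.9 CPM per kb. The neuronal markers were lower, with *Syt1* at 5.50, *elav* at 2.74 and *brp* at 1.28 CPM per kb, and the lowest member was *eag* at 0.563 CPM per kb. Each member had at least 7 counts in every one of the 34 libraries. On the dm6 annotation of the table, *tipE* shared 19.03% of its exon bases with another gene on the same strand, *Ank2* 12.5%, *futsch* 5.09% and *Nrx-1* 1.18%. The other 29 shared none, and reads over shared bases were not counted for either gene.

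**Figure D1:**
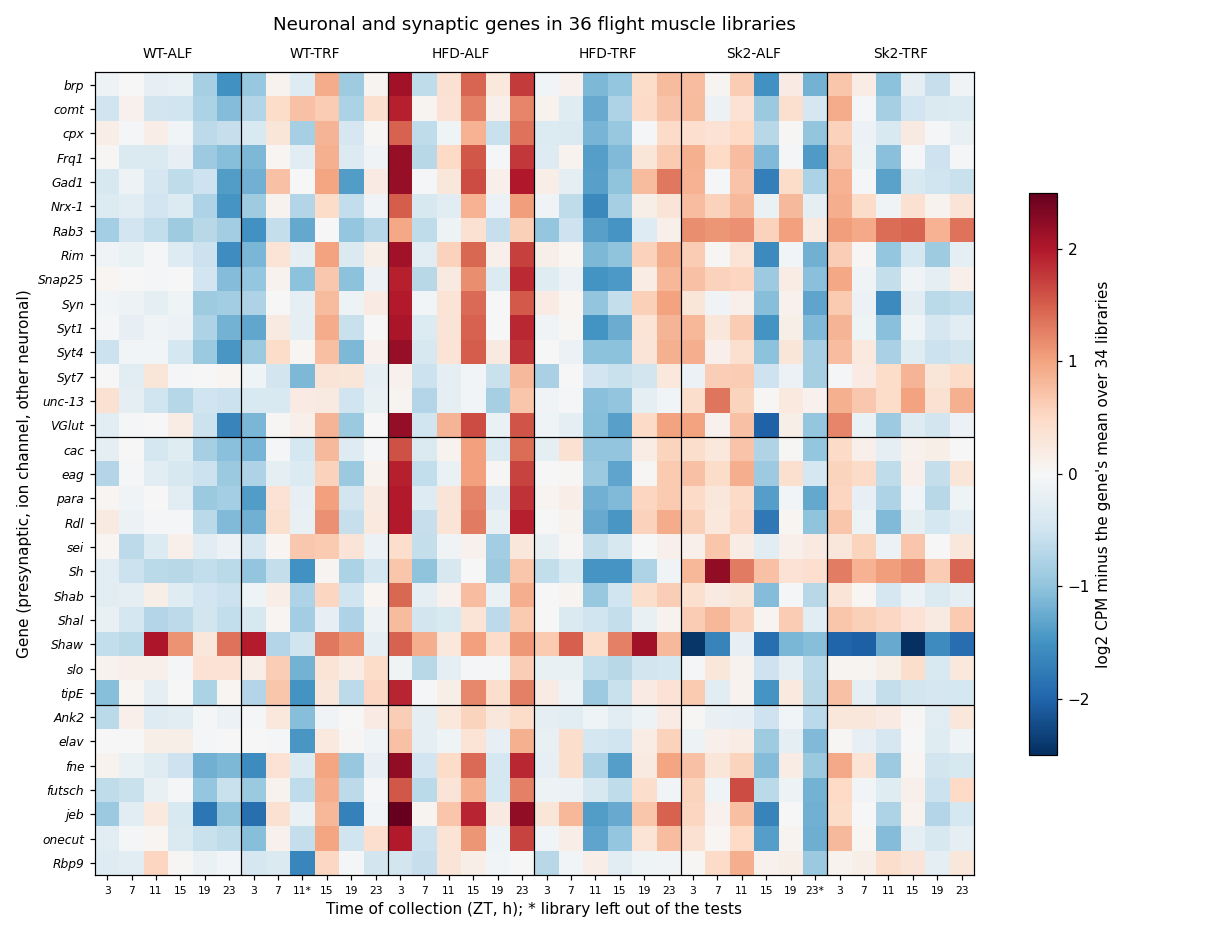
Each row is a member and each column a library, labelled by time of collection (ZT, h); colour is log2 CPM minus the gene's mean over the 34 libraries used in the tests, and asterisks mark the 2 libraries left out. HFD-ALF at ZT3, ZT15 and ZT23 forms 3 red columns over most rows, while *Rbp9* and *slo* are the 2 members whose 3 highest HFD-ALF libraries are others.

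The study asked what TRF changes in muscle of flies made obese by diet or by mutation. On a high-fat diet, most neuronal genes were lower under TRF than under ALF. The active zone gene *brp* had 71.7, 10.7, 21.7, 46.1, 20.1 and 56.5 CPM in HFD-ALF from ZT3 to ZT23. In HFD-TRF it had 15.9, 18.04, 7.54, 8.48, 22.96 and 28.9 CPM. The HFD-ALF libraries of ZT3, ZT15 and ZT23 were above every HFD-TRF library, while those of ZT7, ZT11 and ZT19 lay within the HFD-TRF range. The log2 fold change of *brp* was -1.15 ± 0.42 (SE), with an adjusted p of 0.230 in edgeR and an exact two-sided permutation p of 0.0844.

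The sodium channel gene *para* was high in the same 3 libraries, with 116, 23.3, 36.35, 69.0, 23.3 and 102 CPM in HFD-ALF. Its HFD-TRF libraries had 30.5, 32.8, 12.6, 13.5, 42.4 and 45.5 CPM. Here too 3 HFD-ALF libraries were above all those of HFD-TRF and the other 3 were among them (log2 fold change -1.05 ± 0.40, edgeR adjusted p = 0.242). *VGlut*, the glutamate transporter gene of motor neurons, had 63.2, 9.67, 24.8, 42.7, 12.2 and 40.99 CPM in HFD-ALF, and 12.6, 11.65, 6.42, 5.21, 19.04 and 27.6 CPM in HFD-TRF. Its log2 fold change was -1.23 ± 0.47 (edgeR adjusted p = 0.243), and the groups overlapped.

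*elav*, the pan-neuronal RNA-binding protein gene, moved less. It had 48.9, 24.7, 27.3, 37.5, 25.4 and 54.5 CPM in HFD-ALF and 25.8, 40.2, 21.8, 20.96, 33.75 and 43.8 CPM in HFD-TRF. The 3 highest HFD-ALF libraries were again those of ZT3, ZT15 and ZT23, over a narrower range than for *brp*. The log2 fold change of *elav* was -0.22 ± 0.19 (edgeR adjusted p = 0.656), and it did not pass the threshold.

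**Figure D2:**
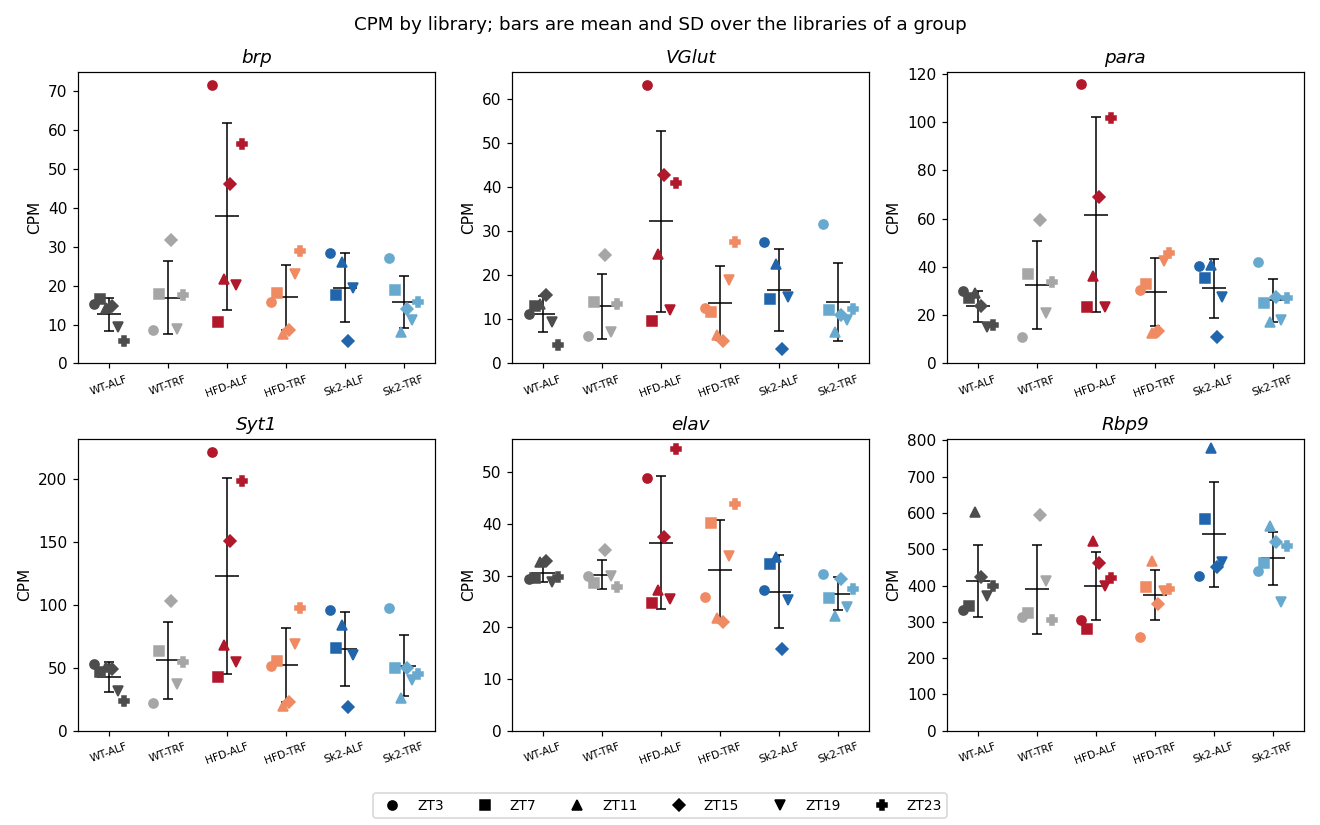
CPM of *brp*, *VGlut*, *para*, *Syt1*, *elav* and *Rbp9* in each of the 34 libraries, by group on the horizontal axis, with marker shape for the time point and bars for mean and SD over the libraries of a group. For the first 4 genes the ZT3, ZT15 and ZT23 libraries of HFD-ALF stand above all other HFD libraries, whereas *Rbp9* lies between 258 and 523 CPM in both HFD groups without that order.

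Over the whole list, 26 of 33 members were lower in HFD-TRF than in HFD-ALF at the threshold used in the study, a change of at least 0.32 on the log2 scale with an unadjusted p of at most 0.05, and 0 were higher. Of the 9996 genes tested, 7.32% were lower by the same rule. All 26 and no other member had an unadjusted p under 0.05 in edgeR. No member had an adjusted p under 0.05 (0% of all genes were lower by that rule, and 6 genes were higher); the smallest was 0.170 for *Ank2*, and DESeq2 gave 0 members as well. The groups did not separate for any member, against 0.26% of all genes. The median log2 fold change was -0.94 over the members and 0.03 over all genes. The 26 ranged from -1.33 for *Frq1*, the gene of a calcium sensor in nerve terminals, to -0.38 for *slo*.

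By role, 13 of 15 presynaptic genes and 8 of 11 channel genes were lower at that threshold, with median log2 fold changes of -1.07 and -0.71. Of the presynaptic genes with the smallest p-values, *Syt4*, a relative of the calcium sensor Synaptotagmin 1, had 7.22 to 43.8 CPM (median 19.8) in HFD-ALF and 4.63 to 17.9 CPM (median 9.07) in HFD-TRF. *Frq1* had 7.22 to 53.5 CPM (median 25.7) in HFD-ALF and 4.45 to 18.7 CPM (median 10.9) in HFD-TRF. *comt*, which encodes the NSF ATPase that recycles the fusion machinery, had 14.6 to 53.7 CPM (median 25.3) and 5.74 to 22.8 CPM (median 12.99). In all 3 the ranges overlapped, the HFD-ALF median being above the highest HFD-TRF library. The exact permutation p was 0.0649 for *Syt4*, 0.0693 for *Frq1* and 0.0433 for *comt*.

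*Rim* had 9.41 to 49.7 CPM (median 24.3) in HFD-ALF and 5.22 to 21.9 CPM (median 12.3) in HFD-TRF. *Syn*, the gene of the vesicle-tethering protein Synapsin, had 18.9 to 78.9 CPM (median 39.3) and 10.02 to 40.2 CPM (median 21.9). *Gad1*, which makes the inhibitory transmitter GABA, had 27.5 to 129 CPM (median 61.8) and 11.05 to 71.5 CPM (median 27.99). For *Syn* and *Gad1* the highest HFD-TRF library passed the HFD-ALF median, so the overlap was wider than for *Rim*. The adhesion gene *Nrx-1* had 16.1 to 61.3 CPM (median 29.2) and 6.85 to 26.6 CPM (median 16.8), with a log2 fold change of -0.94 ± 0.31 (edgeR adjusted p = 0.207).

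Among the channel genes, *eag* had 3.87 to 23.4 CPM (median 9.23) in HFD-ALF and 2.299 to 9.45 CPM (median 5.99) in HFD-TRF, a log2 fold change of -1.09 ± 0.38 (edgeR adjusted p = 0.227). *tipE*, which encodes an auxiliary subunit of the sodium channel, was lower under TRF at 6 of 6 time points (log2 fold change -1.08 ± 0.34, exact permutation p = 0.0325). *slo* was lower at 5 of 6, with 138 to 342 CPM (median 214) in HFD-ALF and 138 to 196 CPM (median 163) in HFD-TRF. The channel genes that did not pass were *Shal* at -0.39, *sei* at -0.09 and *Shaw* at 0.33 on the log2 scale. *Shaw* was the single member with a positive value.

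Of the other neuronal genes, *jeb*, which encodes a secreted ligand of the Alk receptor, had 9.67 to 52.9 CPM (median 25.02) in HFD-ALF and 3.43 to 25.8 CPM (median 13.2) in HFD-TRF. *Ank2*, a neuronal ankyrin of the membrane skeleton, had 74.5 to 135 CPM (median 114) and 72.4 to 102 CPM (median 78.0). *Ank2* was lower at 6 of 6 time points, by differences in log2 CPM from -0.85 at ZT3 to -0.02 at ZT7, with a log2 fold change of -0.46 ± 0.13 and an exact permutation p of 0.0195. The 7 members that did not pass were *elav*, *Syt7*, *unc-13*, *Shal*, *Shaw*, *sei* and *Rbp9*.

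The difference between regimens was not alike at all times of collection. Members lower under TRF numbered 33 of 33 at ZT3, 32 at ZT11, 32 at ZT15 and 33 at ZT23, but 5 at ZT7 and 5 at ZT19. The share of all genes lower under TRF ran from 43.2% at ZT3 to 52.8% at ZT11. Over the members the median difference in log2 CPM was -1.83 at ZT3 and -2.00 at ZT15, and 0.51 at ZT7 and 0.46 at ZT19. With 1 pool at each time point, the hour and the pool cannot be told apart. In HFD-ALF the 3 highest libraries were those of ZT3, ZT15 and ZT23 for 31 of 33 members, and in HFD-TRF the 2 lowest were those of ZT11 and ZT15 for 29. The count of members past the threshold rested on single libraries: without HFD-ALF at ZT3 it was 13 of 33 and without HFD-ALF at ZT23 it was 17.

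**Figure D3:**
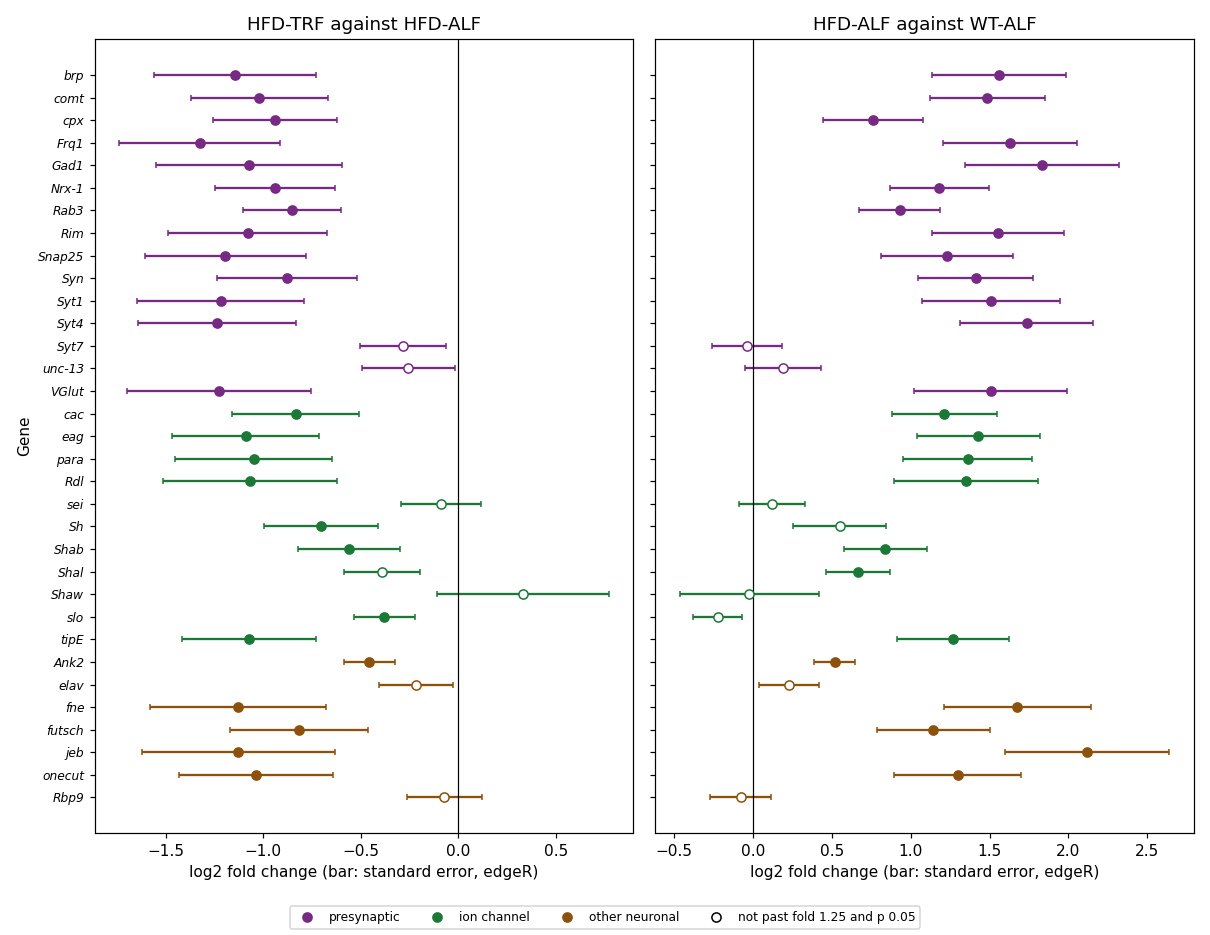
Log2 fold change of each member for HFD-TRF against HFD-ALF on the left and HFD-ALF against WT-ALF on the right. Bars are standard errors derived from the edgeR F statistic. Filled points passed the study's fold and unadjusted p thresholds. On the left 26 filled points lie below 0 and on the right 25 lie above 0, and both panels share the HFD-ALF libraries.

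The effect of diet was examined by setting HFD against WT under each regimen. Under ALF, 25 of 33 members were higher in HFD than in WT and 0 were lower, against 14% of all genes higher. Of these, 24 had an adjusted p under 0.05 in edgeR, against 9.42% of all genes; *cpx* was the exception (adjusted p = 0.0967). Log2 fold changes of the 25 ran from 0.52 for *Ank2* to 2.12 for *jeb*, and the median over the members was 1.23, against -0.06 over all genes. The comparison uses the same HFD-ALF libraries as that of the regimens, so the values are not independent of those above.

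In WT-ALF *brp* had 15.2, 16.6, 14.4, 14.8, 9.27 and 5.74 CPM from ZT3 to ZT23, a flat series that ended low. HFD-ALF at ZT7 fell inside that range and the other 5 HFD-ALF libraries were above it. The log2 fold change was 1.56 ± 0.43 (edgeR adjusted p = 0.0124, exact permutation p = 0.0281). *Syn* and *Gad1* did not overlap, although the margins were narrow, with WT-ALF maxima of 18.947 and 26.1 CPM and HFD-ALF minima of 18.948 and 27.5 CPM. These 2 members compare with 4.64% of all genes.

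The raised genes spanned the roles: 13 of 15 presynaptic genes (median log2 fold change 1.48) and 7 of 11 channel genes (median 0.84). *Syt4* rose by 1.74 ± 0.42, *comt* by 1.48 ± 0.36 and *Frq1* by 1.63 ± 0.42 on the log2 scale, with edgeR adjusted p-values of 0.00567, 0.00624 and 0.00945. *VGlut* had 4.25 to 15.6 CPM (median 12.2) in WT-ALF and rose by 1.51 ± 0.48 (edgeR adjusted p = 0.0313). *para* had 15.2 to 30.1 CPM (median 25.5) and rose by 1.36 ± 0.41 (edgeR adjusted p = 0.0218). The 8 members that did not pass were *elav* at 0.23, *Sh* at 0.55, *unc-13* at 0.19, *sei* at 0.12, *Shaw* at -0.02, *Syt7* at -0.04, *Rbp9* at -0.08 and *slo* at -0.22 on the log2 scale. Without HFD-ALF at ZT3 the count past the threshold was 24, but the count with an adjusted p under 0.05 was 8; without HFD-ALF at ZT23 the latter was 16.

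Under TRF the same comparison of diets gave few calls among these genes. Of the 33 members, 0 were higher and 1 was lower in HFD-TRF than in WT-TRF, against 11.1% of all genes lower, and the median log2 fold change was -0.06. *brp* had 8.54, 17.9, 31.8, 8.94 and 17.6 CPM in the 5 WT-TRF libraries, which overlapped those of HFD-TRF. The member that fell was *slo*, with 251 to 343 CPM (median 282) in WT-TRF and 138 to 196 CPM (median 163) in HFD-TRF. The groups did not overlap (5.27% of all genes), the log2 fold change was -0.77 ± 0.16, and the adjusted p was 0.00254 in edgeR (4.74% of all genes lower).

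In the other flies, hardly any single member passed the threshold for TRF against ALF. In WT 0 of 33 members passed the threshold in edgeR and 0 in DESeq2, against 5.96% of all genes in edgeR; 0 had an unadjusted p under 0.05, and the median log2 fold change was 0.38. In *Sk2* 0 of 33 passed in edgeR and 1 in DESeq2, against 6.73% of all genes in edgeR; 1 member, *Ank2*, had an unadjusted p under 0.05 and fell short of the fold, and the median was -0.23. Of the 33 log2 fold changes, 30 were positive in WT and 27 were negative in *Sk2*. The members rise and fall together across libraries, so their signs are not independent and single libraries can turn many of them. In WT 33 members were higher under TRF at ZT15 and 28 at ZT23, while 27 were lower at ZT3. Of all genes in WT, 51.3% were lower at ZT3, 49.3% at ZT15 and 49.6% at ZT23. The difference between the TRF effects was tested in the same edgeR fit, and the WT values enter it as well as those of HFD. Relative to WT, the TRF effect in HFD was lower for 26 of 33 members, against 5.13% of all genes, with a median of -1.32 and a smallest adjusted p of 0.478. Without WT-TRF at ZT15 that count was 14, and without HFD-ALF at ZT3 it was 16. Relative to *Sk2* it was lower for 3 (*Ank2*, *Rab3* and *slo*), against 5.88%, with a smallest adjusted p of 0.121.

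*Sk2* flies were set against WT under each regimen in the same way. Under ALF 7 were higher (14.4% of all genes) and 1 was lower (16.4%) than in WT, and 6 of the 8 had an edgeR adjusted p under 0.05 (22.8% of all genes). The median log2 fold change over the members was 0.53, against 0.00 over all genes, with 29 of 33 positive; without *Sk2*-ALF at ZT15, 13 members passed and the median was 0.79. Under TRF 4 were higher (15.5%) and 1 was lower (17.1%), all 5 with an adjusted p under 0.05 (24.9%), and the median was -0.14. *Rab3*, the gene of a vesicle GTPase, had 14.8 to 19.8 CPM in WT-ALF and 41.4 to 62.0 CPM in *Sk2*-ALF, with no overlap (log2 fold change 1.71 ± 0.27, edgeR adjusted p = 1.71e-05). The voltage-gated potassium channel gene *Sh* had 33.6 to 45.5 CPM and 69.6 to 253 CPM, also with no overlap (1.78 ± 0.31, edgeR adjusted p = 7.4e-05).

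*Shaw*, another voltage-gated potassium channel gene, went the other way, with 55.3 to 357 CPM in WT-ALF and 16.2 to 77.0 CPM in *Sk2*-ALF (log2 fold change -2.22 ± 0.50, edgeR adjusted p = 0.00128). Under TRF it had 52.9 to 344 CPM in WT and 12.5 to 36.999 CPM in *Sk2*. *Rab3*, *Sh*, *Shal* and *unc-13* were higher and *Shaw* lower in *Sk2* under both regimens. Members whose groups did not overlap numbered 4 under ALF and 5 under TRF, against 12.2% and 15.4% of all genes. Both counts are near those backgrounds.

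Whether presynaptic genes and ion channels move together was examined through the libraries. Log2 CPM was centred on each group's mean, and Pearson correlations were computed for pairs of genes over the 34 libraries. They are descriptions without a test, since all pairs share the same libraries and their scaling. The median correlation was 0.92 over the 105 presynaptic pairs, 0.73 over the 55 channel pairs and 0.77 over the 165 pairs of a presynaptic and a channel gene. Over all pairs of the 9996 genes it was -0.01. In the 12 HFD libraries alone the medians were 0.96, 0.90 and 0.92. They were lower in the other models, at 0.87, 0.45 and 0.64 over the 11 WT libraries. Over the 11 *Sk2* libraries they were 0.90, 0.62 and 0.71.

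The mean log2 CPM of the 15 presynaptic genes and that of the 11 channel genes, centred in the same way, had r = 0.96 over 34 libraries and 0.95 once the 2 most extreme presynaptic means were dropped. In the 12 HFD libraries r was 0.99, and the channel mean moved by 0.76 for each unit of the presynaptic mean. Over the 11 WT libraries r was 0.90 and over the 11 *Sk2* libraries 0.95. Spearman correlations of the same means were 0.99 in HFD, 0.71 in WT and 0.92 in *Sk2*. The presynaptic mean ran from 4.31 to 6.41 in HFD-ALF and from 3.55 to 5.42 in HFD-TRF, and the channel mean from 4.11 to 5.76 and from 3.66 to 4.86. Both classes were highest in HFD-ALF at ZT3 and lowest in HFD-TRF at ZT11 among the HFD libraries.

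**Figure D4:**
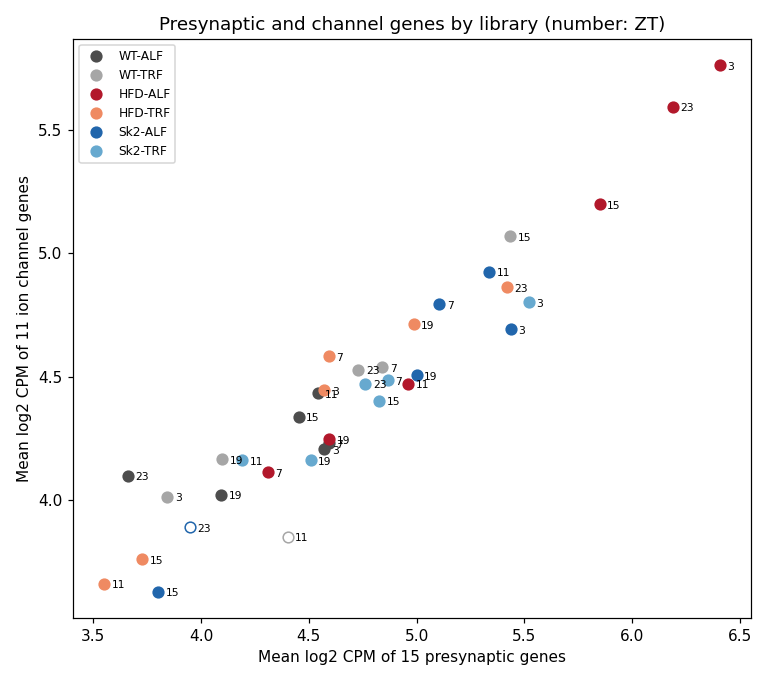
Mean log2 CPM of the 15 presynaptic genes (horizontal) and the 11 ion channel genes (vertical) in each of the 36 libraries, coloured by group and numbered by ZT; open points are the 2 libraries left out of the tests. The points lie along 1 band, with HFD-ALF at ZT3, ZT23 and ZT15 at its upper end.

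The agreement did not extend to every member. The median correlation of a gene with the other 32 members was above 0.5 for 28 of them, led by *Syt1* and *onecut*, a homeodomain transcription factor gene of neurons, both at 0.93. It was 0.02 for *Shaw*, 0.16 for *Rbp9*, 0.46 for *Syt7*, 0.47 for *Ank2* and 0.49 for *slo*. Over the HFD libraries alone it was above 0.5 for 31 members, the exceptions being *Shaw* at 0.49 and *Rbp9* at -0.01. Of these, *Rbp9*, *slo*, *Shaw* and *Syt7* were the 4 members with the highest levels per kb of exon. *elav* correlated at 0.78, with an SD within groups of 0.34 on the log2 scale against 0.80 for *brp*.

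The spread between libraries of a group was wider for the members than for other genes. The median SD of log2 CPM was 0.88 over the members in HFD-ALF, against 0.35 over all genes, and 0.72 against 0.32 in HFD-TRF. In WT-ALF the values were 0.39 and 0.32. They were 0.69 and 0.31 in WT-TRF, 0.71 and 0.30 in *Sk2*-ALF and 0.49 and 0.26 in *Sk2*-TRF. The wider spread of the members was thus not particular to the high-fat diet. The highest library of HFD-ALF was a median of 4.16 times the lowest over the members, and 1.93 times over all genes. Over the members this ratio was 3.62 in HFD-TRF, 3.61 in *Sk2*-ALF, 3.00 in WT-TRF, 2.41 in *Sk2*-TRF and 2.05 in WT-ALF.

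Other neuronal genes were read from lists of related genes, also chosen with earlier results of these data known. At the study's threshold, of 24 genes for transmitter systems and receptors, 17 were lower in HFD-TRF than in HFD-ALF and 22 were higher in HFD-ALF than in WT-ALF. Of 20 other channel genes 11 were lower in the former comparison, and in the latter 11 were higher and 2 lower. Of 21 other vesicle and release genes 9 were lower and 10 were higher. Of 20 genes for neuronal adhesion and the cytoskeleton, 12 were lower and 1 higher in the former, and 14 were higher and 1 lower in the latter. Median log2 fold changes of the 4 lists were -0.95, -0.60, -0.14 and -0.93 for the regimens. For the regimens 0 genes of these lists had an adjusted p under 0.05 in edgeR, whereas for the diet 16, 9, 9 and 11 were higher by that rule. For the diet 1 of the other channel genes and 1 adhesion or cytoskeleton gene were lower by it. Of all 9996 genes, 7.32% were lower for the regimens and 14% were higher for the diet at the study's threshold. By adjusted p, 9.42% were higher for the diet.

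Several of the most abundant genes of these lists did not pass the threshold. The endocytosis genes *AP-2alpha*, *shi* and *lap* had log2 fold changes of -0.18, -0.13 and -0.14 for HFD-TRF against HFD-ALF. The calcium channel gene *Ca-alpha1D*, at a median of 364 CPM, had -0.16, and the ankyrin gene *Ank*, at 587 CPM, had -0.12.

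Markers of other cell types were read beside the members. For HFD-TRF against HFD-ALF, 0 of 16 flight muscle markers passed the threshold, as did 0 of 11 photoreceptor markers, 0 of 11 gut markers and 0 of 5 egg chamber markers. The egg chamber markers summed to only 3.03 to 7.03 CPM in HFD-ALF and 3.31 to 9.31 CPM in HFD-TRF. Several photoreceptor markers were also low, such as *inaC* at a median of 0.294 CPM over the 34 libraries. At such levels few changes could pass, so no conclusion was drawn from these absences. Of 8 fat body markers 1 was higher, as was 1 of 10 haemocyte markers. The summed flight muscle markers were at 34031 to 61393 CPM in HFD-ALF and at 40397 to 59399 CPM in HFD-TRF. Of 11 glia markers 2 were lower, against 7.32% of all genes. Their summed levels were 1631 to 2131 CPM in HFD-ALF and 1658 to 2372 CPM in HFD-TRF, and none was at 0 in any of the 34 libraries.

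For HFD-ALF against WT-ALF, 3 of 11 glia markers were higher and 0 lower, and 1 of 11 photoreceptor markers was higher. Of 8 fat body markers 1 was higher and 3 lower. Of all genes 14% were higher. In the same comparison 6 of 10 haemocyte, 4 of 5 egg chamber, 2 of 16 flight muscle and 1 of 11 gut markers were lower. Those lower with an adjusted p under 0.05 in edgeR numbered 2, 3, 0 and 1. Only 5 of the 16 egg chamber markers passed the filter on low counts. In HFD-ALF *Cp15* had at most 0.227 CPM, *nos* at most 0.459 CPM and *Jon65Aii*, the gut marker called, at most 0.151 CPM. These genes passed the filter through libraries of other groups, so no conclusion was drawn from their calls. The share of all genes that were lower in this comparison is not given here. The lower counts of the marker lists therefore cannot be read as above or below a background. In either direction 3049 of 9996 genes had an unadjusted p under 0.05 in edgeR and 1659 an adjusted p under 0.05. Summed haemocyte markers were at 4735 to 7718 CPM in WT-ALF and at 3181 to 4294 CPM in HFD-ALF, so the groups did not overlap. Summed egg chamber markers were at 6.60 to 1269 CPM and at 3.03 to 7.03 CPM.

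The 3 highest HFD-ALF libraries were those of ZT3, ZT15 and ZT23 for 6 of 11 glia markers (*alrm*, *axo*, *nrv2*, *Nrx-IV*, *repo* and *wrapper*), against 11.9% of all genes. *moody*, *Gs2*, *Eaat1*, *Gli* and *Mdr65* did not have that order. Their log2 fold changes for HFD-TRF against HFD-ALF were 0.21, 0.14, -0.26, -0.004 and -0.05. That of *alrm*, -1.85, was the most negative of the 11. *alrm*, which marks astrocyte-like glia of the fly central nervous system and was chosen after its values were seen, had 39.996, 6.45, 11.7, 37.6, 2.33 and 55.0 CPM in HFD-ALF from ZT3 to ZT23, and 7.13, 3.80, 5.22, 2.47, 8.62 and 15.2 CPM in HFD-TRF. The pan-glial gene *repo* had 8.69, 5.54, 7.95, 10.1, 6.68 and 12.0 CPM in HFD-ALF, and the photoreceptor opsin gene *ninaE*, also chosen after its values were seen, had 7.33, 1.28 and 2.02 CPM in those 3 libraries and 28.9 to 54.5 CPM in the other 3. Another gene of the photoreceptor list, *norpA*, was highest in those 3 libraries, the only 1 of 11 with that order. The part of nervous tissue carried over with the muscle in these results was not tested.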

How the data were processed

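Poly(A) RNA of indirect flight muscle was sequenced in 36 libraries. The authors deposited a table of raw gene counts, made with STAR (2.5.3a in the submitters' processing notes; other versions and builds are named elsewhere) and featureCounts 1.5.0-p1 on dm6 exons, by strand, from uniquely aligned reads. Groups came from the sample labels. The 33 members and all lists were chosen with earlier results of these data known.

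Genes were filtered with filterByExpr, scaled by TMM and tested with the quasi-likelihood test of edgeR 4.0.16 (R 4.3.3) on 6 group means over 34 libraries, whose totals ran from 3329519 to 30682673 counts. The study's methods used DESeq2; here DESeq2 1.42.0 was an alternative. Adjusted p-values are Benjamini-Hochberg over 9996 genes. The edgeR test gives no standard error. Those printed (SE) are the absolute log2 fold change divided by the square root of its F statistic. CPM used TMM factors of all 36 libraries, and log2 CPM a prior count of 2. Exact permutation tests were two-sided, on log2 CPM, with 0.00216 as the smallest p they can give. P-values measure the spread between pools collected at different hours. Scripts were tested on simulated data.

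Values were given by library for *elav*, *brp*, *VGlut* and *para*, by range and median for the others of the 12 members with the smallest p among those past the threshold in HFD-TRF against HFD-ALF or with an adjusted p under 0.05 in HFD against WT, and for the remaining members by count and fold change. Alternatives were all 36 libraries, 32 libraries, a fit of the compared groups, 2 other filters, RLE factors, DESeq2, the time point as a block, and leaving out each library. Sequences were not used here.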

Additional observations from a re-analysis of the deposited data

Results flagged for a closer look

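Among 90 sets of values (15 genes in 6 groups), 6 held a library far from the others of its group on the log2 scale; chance flags about 1 in 20. In *Sk2*-ALF the ZT15 library was the lowest and apart for *Syn* (9.44 CPM, the next being 18.7), *Nrx-1* (18.98 CPM, next 31.6) and *eag* (3.13 CPM, next 7.93). In *Sk2*-TRF the ZT3 library was the highest and apart for *VGlut* (31.8 CPM, next 12.3). In HFD-TRF the ZT23 library was the highest for *Ank2* (102 CPM, next 81.9). In WT-ALF the ZT23 library was the lowest for *Rim* (3.83 CPM, next 7.88). No difference between the TRF effects of 2 models had an adjusted p under 0.05 for a member.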

How the results depend on the processing

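The main limit is 1 pool per group and time point. For HFD-TRF against HFD-ALF the count of members past the threshold was 19 to 27 under the settings that kept every library of both groups, and leaving out HFD-ALF at ZT3 (13) or ZT23 (17) moved it further. For *Sk2*-TRF against *Sk2*-ALF the count was 1 with all 36 libraries, without a filter, with RLE factors and with DESeq2; the cause was not tested. Single genes were followed mainly where a member had passed the threshold in the main fit. The genes described by value were also followed in HFD-TRF against HFD-ALF and HFD-ALF against WT-ALF. Few of these values could therefore newly pass, and members that newly passed elsewhere enter only the counts of members. Of these 2239 values under an alternative, 2099 stayed on their side of the threshold, 139 no longer passed, 1 newly passed and 0 reversed.

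With 1 library left out, the counts ran from 13 to 27 for HFD-TRF against HFD-ALF, from 0 to 1 for TRF in WT and in *Sk2*, from 24 to 26 for HFD-ALF against WT-ALF, from 6 to 13 for *Sk2*-ALF against WT-ALF (13 without *Sk2*-ALF at ZT15), from 5 to 6 for *Sk2*-TRF against WT-TRF, 1 throughout for HFD-TRF against WT-TRF, from 14 to 27 for the TRF effect in HFD against WT, and from 2 to 5 against *Sk2* (5 without HFD-ALF at ZT7 or HFD-TRF at ZT23).

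The median correlation of presynaptic with channel genes was 0.75 with all 36 libraries and 0.63 with group means left in, against 0.77 and a spread of 0.01 (SD) over fits without 1 library, which ran from 0.75 to 0.79; leaving out single libraries was added after seeing the data.

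The time point as a replicate block gave 23 members for HFD-TRF against HFD-ALF and 24 for HFD-ALF against WT-ALF. The labels tie libraries of a time point to no shared source, and their correlations over 1000 genes exceeded 0.1 for 3 of 6 pairs in HFD, 1 of 5 in WT and 3 of 5 in *Sk2*. Mean correlations at the same time were 0.15 in HFD, 0.195 in *Sk2* and -0.0088 in WT, against -0.029, -0.039 and 0.0020 at different times.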
